A study of Mus musculus with 6 samples.

Results

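The survival and apoptosis genes described here are 36 genes that decide, at the level of known biology, whether a cell withstands or enters programmed death: 14 pro-survival genes and 22 death genes. They were chosen by gene symbol, with earlier results of these data known, and all 36 were found among the 19846 genes of the expression table. RNA had been sequenced from hematopoietic stem cells (HSCs), sorted from mouse bone marrow as CD34-/LSK cells, that is, cells without lineage markers that carry Sca-1 and c-Kit and lack CD34. There were 3 libraries from WT mice and 3 from CD74-/- mice, which lack the MIF receptor CD74 in every tissue; both were untreated, of the C57BL/6 strain and 6 to 8 weeks old, and each library was made from a small fixed number of sorted cells. The labels name 3 mice and 3 libraries per genotype, read here as 1 mouse for each library, and do not say whether WT and CD74-/- mice were littermates. One question of the study was the survival of CD74-/- stem cells, and the comparison of WT with CD74-/- cells asks how the RNA of the death machinery differed between them.

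In the mitochondrial pathway of apoptosis, the effectors BAX and BAK open the outer mitochondrial membrane, anti-apoptotic relatives such as BCL2 and MCL1 hold them back, and small BH3-only proteins tip the balance towards death. Cytochrome c that leaks out assembles APAF1 and caspase-9 into the apoptosome, which starts the caspase cascade unless inhibitor of apoptosis proteins stop it. In the extrinsic pathway, receptors such as FAS recruit FADD and caspase-8, and BID links the pathways. MCL1 is known to be required for the survival of hematopoietic stem cells in mice, and much of this machinery is set by protein stability, cleavage and location, none of which RNA counts measure.

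Gene-assigned reads numbered from 14390534 to 16198678 in the 6 libraries. Values below are normalized counts, reads per gene divided by the size factor of the library. The level of Cd74 was 2951 ± 435 normalized counts for WT and 63.6 ± 15.2 for CD74-/- libraries (SD, n = 3), in the direction of the labels. The 13 HSC markers summed (among them Kit, Ly6a, Procr and Mecom) were all present, with a sum of 46391 to 59854 normalized counts in WT and 36641 to 62050 in CD74-/- libraries. Markers of other cells were also present, and none of the 8 lists was empty in either genotype. The 14 neutrophil markers summed to 1004301, 169578 and 243428 normalized counts in WT replicates 1 to 3, where replicate 1 stands apart with 6.45% of all its counts, and to 158771, 38606 and 57152 in CD74-/- replicates 1 to 3. The sums were 3405 to 11243 against 1366 to 3494 for 12 B cell markers, 39103 to 58964 against 25190 to 39259 for 12 erythroid markers and 29407 to 50623 against 9455 to 39068 for 10 monocyte and macrophage markers. They were 3560 to 8227 against 5479 to 12170 for 9 T and NK cell markers and 2780 to 5047 against 4090 to 7489 for 9 megakaryocyte and platelet markers, while 9 dendritic cell markers summed to 4652 to 5481 in WT and 5545 to 6735 in CD74-/- libraries. At an unadjusted limma p under 0.05, 4.6% of all tested genes were lower in CD74-/- libraries and 3.14% higher. Of the markers, 11 of 14 neutrophil, 9 of 12 B cell, 7 of 11 tested erythroid and 5 of 10 monocyte and macrophage ones were lower. So were 2 of 9 megakaryocyte and platelet, 1 of 8 tested dendritic cell and 0 of 8 tested T and NK cell markers. Only 1 megakaryocyte and platelet marker was higher. At this limit 0 of the 13 HSC markers were lower, though 11 had a negative log2 fold change, beside 52.3% of all tested genes. So did 6 of 9 megakaryocyte and platelet, 5 of 8 tested dendritic cell and 3 of 8 tested T and NK cell markers. Cd3g, Cd8a, Siglech and Cd209a were at 0 in each CD74-/- library. In such bulk samples fewer cells of a type and less RNA per cell cannot be told apart.

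No survival or apoptosis gene passed the test between the genotypes. Of the 36 genes, 32 reached an average of 10 normalized counts and entered the limma test on log2(normalized count + 1), with Benjamini-Hochberg adjustment over 14892 genes. Bcl2a1a, Bcl2a1d, Pmaip1 and Bik stayed below this limit; DESeq2 tested all 36 genes and edgeR 33, Pmaip1 among them. The number called at an adjusted p under 0.05 was 0, beside 0.0873% of all tested genes (0.0403% higher and 0.047% lower), and edgeR and DESeq2 on reads recovered from the table also called 0, beside 0.083% and 0.756%. At an unadjusted p under 0.05, limma gave 1 gene higher (Bid, beside 3.14% of all genes) and 0 lower (beside 4.6%), that is, 1 of 32 beside 7.74% of all genes. edgeR gave 1 gene, beside 7.09%, and DESeq2 gave 2 (Bid and Mcl1), beside 8.35%. The groups did not overlap for Bid, higher in CD74-/- cells, and for Mcl1 and Pim2, lower; these are 3 of 32 tested genes, beside 12.8% of all genes tested. These shares did not exceed those of all genes. The lowest adjusted p was 0.583 (Bid) from limma, 0.671 from edgeR and 0.375 from DESeq2. The 12 tested pro-survival genes had a median log2 fold change of -0.30, with 8 of 12 negative, and the 20 tested death genes one of 0.08, with 9 of 20 negative, beside a median of -0.03 and 52.3% negative over all tested genes. Since all of these genes share 6 libraries, the medians are a description. The median of the death genes lay between -0.10 and 0.05 when single libraries were left out, and without WT replicate 1 that of the pro-survival genes was -0.14.

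**Figure D1:**
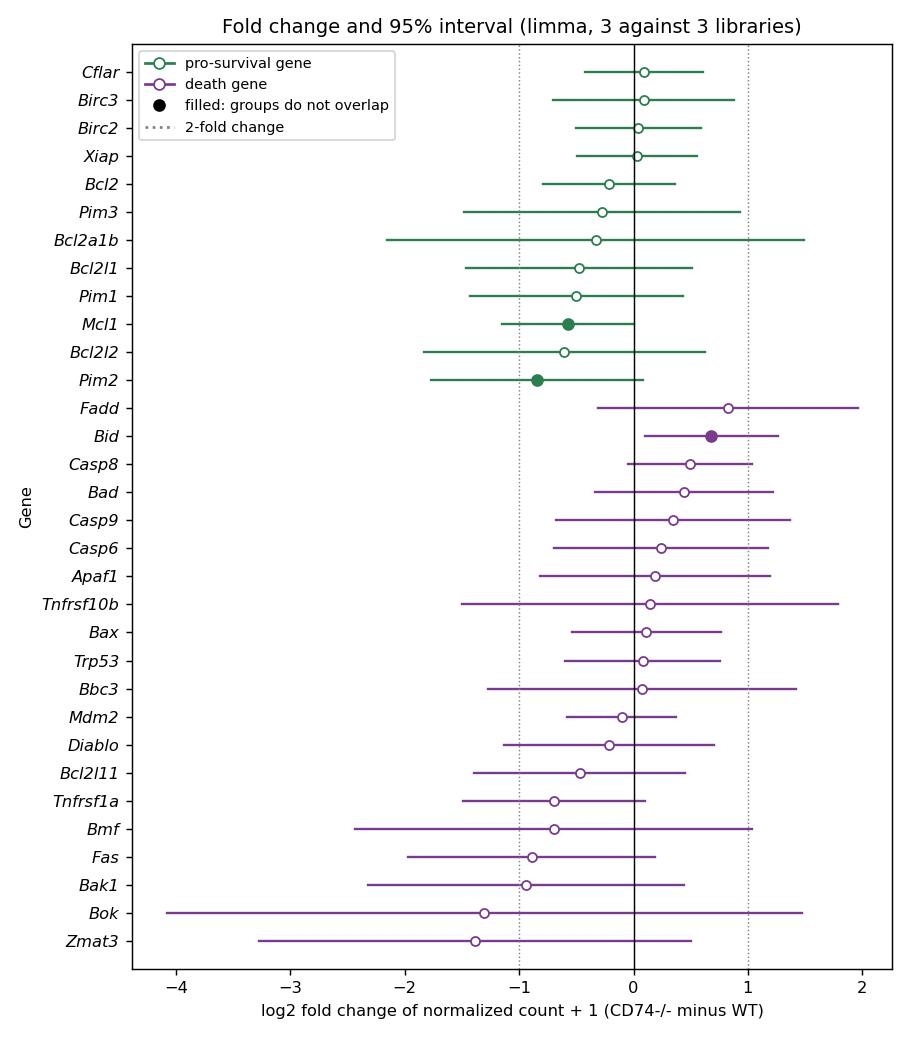
Log2 fold change (CD74-/- minus WT, limma on log2 of normalized count + 1) of the 32 tested genes with the 95% interval, pro-survival genes in green and death genes in purple. Filled points mark Bid, Mcl1 and Pim2, whose groups do not overlap; Bid is the 1 gene whose interval leaves out 0.

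The width of the intervals differed between the genes. For 8 of the 32 genes the whole 95% interval of the log2 fold change lay within a 2-fold change in either direction, beside 28.5% of all tested genes. These are Bcl2, Birc2, Birc3, Xiap, Cflar, Bax, Trp53 and Mdm2, with values of 508 or more in every library. For the other 24 genes a 2-fold change in at least 1 direction lay within the interval.

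Of the anti-apoptotic Bcl-2 relatives, which bind and hold back BAX and BAK, Mcl1 RNA was by far the most abundant. Mcl1 (chromosome 3, 95658788 to 95663176, GRCm38) was at 4292, 2507 and 2923 normalized counts (WT replicates 1 to 3) against 2380, 1699 and 2378 (CD74-/-). Each CD74-/- value was below each WT value, but WT replicate 2 and CD74-/- replicate 1 lay close together, and the highest value came from WT replicate 1, the library with the most neutrophil marker RNA. The means were 3241 ± 934 and 2153 ± 393 (SD, n = 3), a ratio of 0.664, with a log2 fold change of -0.57 (standard error, SE, 0.26, 95% interval -1.15 to 0.01, limma adjusted p = 0.65; two-sided exact permutation p = 0.1, the smallest that 3 against 3 libraries allow). It lay between -0.74 and -0.35 over all alternatives, with -0.35 without WT replicate 1. The sums of the neutrophil markers moved the same way as Mcl1, and their part in its difference was not tested. Per kilobase of exon, Mcl1 ranked first of the 36 genes in WT cells with 948 normalized counts, above 93.7% of tested genes.

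Bcl2 (chromosome 1, 106538178 to 106714274) was at 1609, 1202 and 1214 normalized counts (WT) against 1486, 1012 and 1004 (CD74-/-). CD74-/- replicate 1 lay among the WT values, and the other CD74-/- values were below them. On the log2 scale the fold change was -0.21 (SE 0.26, 95% interval -0.79 to 0.37, limma adjusted p = 0.849), so that for this founding member of the family a 2-fold change in either direction lay outside the interval. It was -0.07 without WT replicate 1 and -0.40 without CD74-/- replicate 1. Bcl2l1, which encodes BCL-XL, a survival factor of platelets and erythroid cells, was at 202, 125 and 185 normalized counts (WT) against 160, 118 and 92.2 (CD74-/-). The groups overlapped in replicate 2 of WT, the lowest of its group. This gave a log2 fold change of -0.48 (SE 0.44, 95% interval -1.46 to 0.51, limma adjusted p = 0.794), and of -0.29 without CD74-/- replicate 3. Bcl2l2, which encodes BCL-W, was spread widely, from 202 to 507 in WT and from 105 to 442 in CD74-/- libraries, and its log2 fold change of -0.60 moved between -1.07 and -0.04 when single libraries were left out (-1.07 without CD74-/- replicate 3, -0.04 without CD74-/- replicate 1).

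The remaining relative, A1, is a short-lived inducible survival protein of granulocytes and lymphocytes, and is known as a target of NF-κB. The mouse carries it in several copies on chromosome 9, of which Bcl2a1a, Bcl2a1b and Bcl2a1d are among the genes described. Their coding sequences of 519 bases are identical at all but 12 positions (97.7%), and 69.0%, 79.2% and 79.5% of the 50-base words of their GENCODE vM21 transcripts also occur in other genes, which are further A1 copies and Gm29094. Exons of Gm29094, on the same strand, cover 49.1% of the exonic bases of Bcl2a1b. Reads counted for 1 copy are therefore uncertain, and reads that fit several copies may have been left out by the authors' counting. The first 150 coding bases are shown here for that reason, with the 7 positions at which the copies differ in capitals; between these positions the copies share every base. They were read from GENCODE vM21 transcripts on GRCm38, at chr9:88957051-88957200 (plus strand) for Bcl2a1a, chr9:89199360-89199509 (plus strand) for Bcl2a1b and chr9:88731570-88731719 (minus strand) for Bcl2a1d.
Bcl2a1a: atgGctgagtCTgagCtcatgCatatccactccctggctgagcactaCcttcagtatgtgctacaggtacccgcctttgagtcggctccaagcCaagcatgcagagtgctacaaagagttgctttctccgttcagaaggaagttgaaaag
Bcl2a1b: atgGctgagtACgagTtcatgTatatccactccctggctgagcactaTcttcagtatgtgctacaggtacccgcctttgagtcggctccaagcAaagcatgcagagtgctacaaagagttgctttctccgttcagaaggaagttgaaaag
Bcl2a1d: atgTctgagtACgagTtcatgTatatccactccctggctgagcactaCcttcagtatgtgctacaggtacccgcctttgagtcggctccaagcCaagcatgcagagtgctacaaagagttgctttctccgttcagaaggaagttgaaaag

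All copies were near the limit of detection. Bcl2a1b, the highest, had 30, 23 and 23 reads in WT and 22, 24 and 13 in CD74-/- libraries. Bcl2a1d had 20, 6 and 8 reads and 10, 11 and 4, and Bcl2a1a had 4, 0 and 11 and 0, 7 and 1, where 0 reads allow up to 3. The groups overlapped for each copy. As a sum, the copies reached 41.2 ± 15.9 normalized counts for WT and 30.8 ± 12.1 for CD74-/- libraries (SD, n = 3), a log2 difference of -0.41, smaller than the spread between libraries of a group on the same scale (0.56 and 0.59).

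Counted per kilobase of exon, this anti-apoptotic group was led by Mcl1 in each of the 6 libraries. Mcl1 accounted for 74.9% ± 1.49 of the summed normalized count per kilobase in WT and 71.1% ± 3.66 in CD74-/- libraries (SD, n = 3). Bcl2 followed with 11.8% ± 1.54 and 14.5% ± 2.73. Bcl2l2 had 6.50% ± 1.69 and 6.92% ± 4.08, and Bcl2l1 had 2.97% ± 0.411 and 3.07% ± 0.827. For each of the 4 genes the ranges of the genotypes overlapped.

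**Figure D2:**
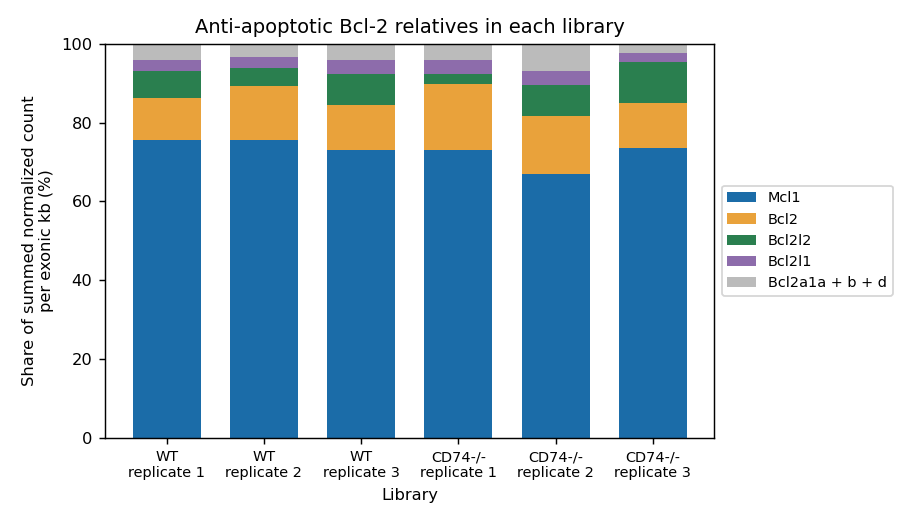
Share (%) of each anti-apoptotic Bcl-2 relative in their summed normalized count per kilobase of exon, 1 bar per library, with the 3 A1 copies as a sum in grey. Mcl1 holds between 66.9% and 75.7% in every library, and Bcl2 between 10.6% and 17%.

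The genes of inhibitor of apoptosis proteins, taken with Cflar, had the smallest fold changes of the groups of genes. Xiap, whose protein blocks caspases directly, averaged 2275 ± 79.5 normalized counts among WT and 2373 ± 608 among CD74-/- libraries (SD, n = 3). Birc2 and Birc3 encode cIAP1 and cIAP2, ubiquitin ligases that steer TNF receptor signalling towards survival, and Cflar encodes cFLIP, which keeps caspase-8 from being activated at death receptors. Their means were 1598 ± 353 and 1629 ± 209 for Birc2, 715 ± 76.0 and 824 ± 430 for Birc3, and 1330 ± 104 and 1425 ± 228 for Cflar. The log2 fold changes of the 4 genes lay between 0.03 (Xiap) and 0.09 (Cflar), and all 4 intervals were within a 2-fold change. Birc3 had its highest value, 1314, in CD74-/- replicate 3, against 508 to 802 in the other libraries, and without that library its log2 fold change was -0.31. The directions of Birc2 and Xiap turn with the scaling of the libraries (-0.02 and -0.04 with an equal total per library), those of Birc2, Xiap and Cflar turned without CD74-/- replicate 3, and that of Birc2 also without WT replicate 2.

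The Pim kinases, growth factor-induced kinases that phosphorylate and inactivate BAD, were lower on average but spread between libraries. Pim2 (chromosome X, 7878262 to 7883432) was at 384, 301 and 360 normalized counts (WT) against 239, 110 and 273 (CD74-/-). Each CD74-/- value was below each WT value, with CD74-/- replicate 2 the lowest. The ratio of means was 0.594 and the log2 fold change -0.84 (SE 0.42, 95% interval -1.77 to 0.09, limma adjusted p = 0.668; exact permutation p = 0.1), and it was -0.44 without CD74-/- replicate 2. Pim1 ranged from 460 to 986 in WT and from 303 to 699 in CD74-/- libraries (log2 fold change -0.50), with the highest value in WT replicate 1, without which the log2 fold change was -0.14. Pim3 ranged from 91.0 to 162 and from 55.8 to 171 (-0.27, and 0.17 without CD74-/- replicate 2).

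**Figure D3:**
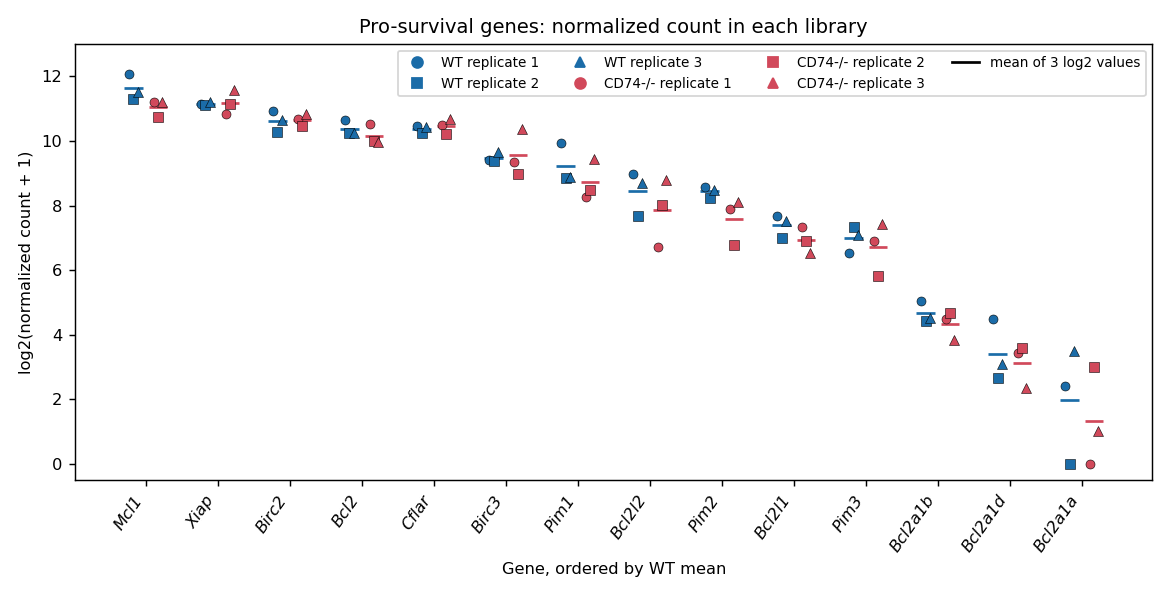
Log2(normalized count + 1) of the 14 pro-survival genes in each of the 6 libraries, with WT in blue, CD74-/- in red, 1 symbol per replicate and a line at the mean of each group. For Mcl1 and Pim2 the 3 red points lie below the 3 blue points; for the other 12 genes the groups overlap.

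Of the pore-forming effectors, Bax was abundant and did not differ beyond the spread of the libraries. Bax (chromosome 7, 45461697 to 45466898) was at 1200, 963 and 1015 normalized counts (WT) against 1243, 1546 and 772 (CD74-/-), so that the CD74-/- libraries held both the highest and the lowest value. The log2 fold change was 0.11 (SE 0.29, 95% interval -0.54 to 0.77, limma adjusted p = 0.94). Bak1 (chromosome 17, 27019810 to 27029009), which encodes BAK, was at 187, 89.6 and 74.7 normalized counts (WT) against 58.7, 31.4 and 93.2 (CD74-/-). WT replicate 1 was the highest, and CD74-/- replicate 3 lay above both other WT libraries. The log2 fold change was -0.94 (SE 0.62, 95% interval -2.32 to 0.44, limma adjusted p = 0.727), and -0.55 without WT replicate 1 or -0.54 without CD74-/- replicate 2. Exons of Ggnbp1 on the other strand cover 25.5% of its exonic bases, whose reads cannot be told apart without strand. Bok, a relative of BAX that can act without BH3-only proteins, had 52, 6 and 60 reads in WT and 23, 2 and 18 in CD74-/- libraries, and showed no difference beyond this spread.

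Among the BH3-only genes, Bid was higher in all CD74-/- libraries than in any WT library. Bid (chromosome 6, 120891930 to 120916853), whose protein is cut by caspase-8 and carries the death receptor signal to mitochondria, was at 699, 619 and 496 normalized counts (WT) against 887, 1085 and 919 (CD74-/-). The groups were well apart, with means of 605 ± 102 and 964 ± 106 (SD, n = 3) and a ratio of 1.59. The resulting log2 fold change was 0.68 (SE 0.26, 95% interval 0.10 to 1.26, unadjusted p = 0.0263 and limma adjusted p = 0.583; exact permutation p = 0.1), which does not pass over all genes. It was between 0.54 and 0.79 under all alternatives, and its unadjusted p was no longer under 0.05 without WT replicate 2, WT replicate 3 or CD74-/- replicate 2. Exons of Bcl2l13, on the other strand, cover 17.7% of the exonic bases of Bid, and its reads cannot be told from theirs there. Exons of other genes also cover 20.5% of the exonic bases of Bad, 14.5% of Pim1, 13.3% of Bcl2l2 and 12.2% of Bax.

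For the other BH3-only genes the genotypes overlapped. Bcl2l11 (chromosome 2, 128126038 to 128162547) encodes BIM, a main killer of cytokine-starved blood cells. It was at 438, 192 and 401 normalized counts (WT) against 218, 303 and 191 (CD74-/-). WT replicate 2 was as low as the CD74-/- libraries, and the log2 fold change was -0.47 (SE 0.42, limma adjusted p = 0.788), with -0.25 without WT replicate 1 and -0.85 without WT replicate 2. Bbc3, which encodes the p53 target PUMA, was at 116, 46.6 and 95.6 (WT) against 71.4, 55.8 and 151 (CD74-/-), with the CD74-/- values inside or above the WT range (log2 fold change 0.07, SE 0.61, limma adjusted p = 0.983). Pmaip1, which encodes NOXA, an antagonist of MCL1, was found in 14, 0 and 0 reads in WT and 17, 0 and 12 in CD74-/- libraries, below the limit of the limma test (edgeR adjusted p = 0.93).

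Bad, whose protein binds BCL2 and BCL-XL when it is not phosphorylated, was between 455 and 548 in WT and between 414 and 1003 in CD74-/- libraries (log2 fold change 0.44, limma adjusted p = 0.759). The lowest CD74-/- value came from replicate 3, without which the log2 fold change was 0.78, and without CD74-/- replicate 1 it was 0.14. Bmf ranged from 46.4 to 104 and from 14.4 to 96.8 (-0.70, limma adjusted p = 0.834). Bik had 0, 9 and 25 reads in WT and 0, 0 and 12 in CD74-/- libraries, also below that limit (DESeq2 adjusted p = 0.959).

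In the extrinsic pathway, the receptors Fas and Tnfrsf1a were lower on average, and the adaptor Fadd and caspase-8 were higher on average, without passing the test. Fas (chromosome 19, 34290666 to 34327772) was at 342, 181 and 234 normalized counts (WT) against 167, 72.0 and 187 (CD74-/-). The groups overlapped where CD74-/- replicate 3 exceeded WT replicate 2. The log2 fold change was -0.89 (SE 0.49, 95% interval -1.97 to 0.19, limma adjusted p = 0.688) and lay between -1.14 and -0.46 when single libraries were left out, with -0.46 without CD74-/- replicate 2. Tnfrsf1a, the main receptor of TNF, ranged from 814 to 1148 in WT and from 387 to 954 in CD74-/- libraries (log2 fold change -0.70, limma adjusted p = 0.675), where CD74-/- replicate 3 was the library within the WT range; without it the log2 fold change was -1.07, and without CD74-/- replicate 2 it was -0.42. Tnfrsf10b, the mouse TRAIL receptor, was low, between 27 and 42 reads in WT and between 19 and 65 in CD74-/- libraries.

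Casp8 (chromosome 1, 58795374 to 58847503) was at 1889, 2329 and 2691 normalized counts (WT) against 3912, 3422 and 2461 (CD74-/-). CD74-/- replicates 1 and 2 were above all WT libraries, and replicate 3 lay inside the WT range. The difference was 0.49 on the log2 scale (SE 0.24, 95% interval -0.05 to 1.04, limma adjusted p = 0.668) and 0.68 without CD74-/- replicate 3. Per kilobase of exon Casp8 was the second most abundant of the 36 genes in WT cells, with 796 normalized counts. Fadd, which bridges receptor and caspase, ranged from 85.6 to 154 in WT and from 112 to 341 in CD74-/- libraries (log2 fold change 0.82, limma adjusted p = 0.711), with CD74-/- replicate 1 the highest and CD74-/- replicate 2 within the WT range, and without CD74-/- replicate 1 it was 0.43.

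Genes of the apoptosome and of the caspases behind it were spread within both genotypes. Apaf1 (chromosome 10, 90989311 to 91082770), the scaffold of the apoptosome, was at 912, 383 and 326 normalized counts (WT) against 413, 444 and 917 (CD74-/-). In each genotype 1 library, WT replicate 1 and CD74-/- replicate 3, was about as high as the other and far above the rest, so the log2 fold change of 0.19 (SE 0.45, limma adjusted p = 0.936) became 0.64 without WT replicate 1 and -0.18 without CD74-/- replicate 3. Casp9 (chromosome 4, 141793612 to 141815976), the initiator that APAF1 activates, was at 89.9, 203 and 110 (WT) against 174, 138 and 171 (CD74-/-), all CD74-/- values inside the WT range (log2 fold change 0.34, SE 0.46, limma adjusted p = 0.865). Its log2 fold change was 0.10 without WT replicate 1 and 0.68 without WT replicate 2. Casp6, an executioner caspase, was abundant, from 1322 to 1879 in WT and from 825 to 2965 in CD74-/- libraries, where replicate 3 was below all WT libraries and the other CD74-/- libraries above them. Without that replicate its log2 fold change was 0.79 instead of 0.24. Diablo, whose product SMAC relieves the block by XIAP, ranged from 282 to 587 and from 213 to 485 (-0.21), and 40.9% of its exonic bases lie in exons of other genes.

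Trp53 and Mdm2, the core of the p53 axis, were abundant, and both intervals lay within a 2-fold change. Trp53 (chromosome 11, 69580359 to 69591873), which encodes p53, was at 1143, 1373 and 1575 normalized counts (WT) against 2220, 1243 and 1057 (CD74-/-), and the CD74-/- libraries held the highest and the lowest value. The log2 fold change was 0.08 (SE 0.30, 95% interval -0.60 to 0.76, limma adjusted p = 0.961). Mdm2 (chromosome 10, 117688875 to 117710758) encodes the ubiquitin ligase that removes p53 and is itself a p53 target, so its place among the death genes is one of pathway and not of function. It was at 1339, 1485 and 1408 normalized counts (WT) against 1263, 1293 and 1386 (CD74-/-), a narrow range in both. Its log2 fold change of -0.10 (SE 0.21, 95% interval -0.58 to 0.37, limma adjusted p = 0.923) had the smallest SE of the 32 genes. Zmat3, an RNA-binding p53 target, varied between 58.2 and 84.5 in WT and between 7.10 and 68.6 in CD74-/- libraries, and its log2 fold change of -1.39 (limma adjusted p = 0.711) was -0.53 without CD74-/- replicate 2.

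**Figure D4:**
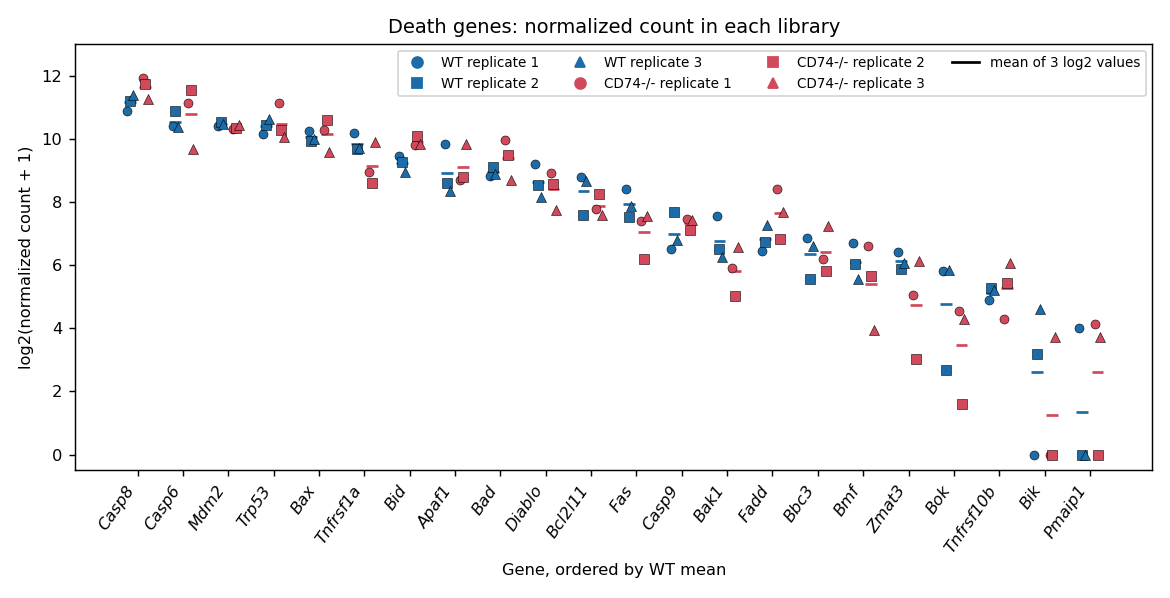
Log2(normalized count + 1) of the 22 death genes in each of the 6 libraries, with WT in blue, CD74-/- in red, 1 symbol per replicate and a line at the mean of each group. Bid is the 1 gene whose 3 red points lie above the 3 blue points; CD74-/- replicate 3 (red triangles) lies apart from the other red points for Casp6, Tnfrsf1a, Apaf1 and Bad.

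Ratios of opposing partners within a library, which do not depend on the scaling between libraries, overlapped between the genotypes as well. The ratio of Bcl2 to Bax counts was 1.34, 1.25 and 1.20 in WT and 1.20, 0.654 and 1.301 in CD74-/- libraries. The low value of CD74-/- replicate 2 stands alone, and without it the log2 difference was -0.02 instead of -0.33. The ratio of Mcl1 to Bak1 was 22.9, 28.0 and 39.1 in WT and 40.5, 54.1 and 25.5 in CD74-/- libraries. That of Bcl2 to Bcl2l11 was 3.67, 6.27 and 3.03 in WT and 6.81, 3.34 and 5.27 in CD74-/- libraries. For none of the 3 ratios did one genotype lie wholly above the other, and the differences of 0.39 for Mcl1 to Bak1 and 0.26 for Bcl2 to Bcl2l11 on the log2 scale were smaller than the SD of the CD74-/- libraries (0.55 and 0.52). With single libraries left out these differences lay between 0.14 and 0.68 and between 0.03 and 0.56. Counts are not scaled by gene length, so the level of a ratio between genes has no meaning of its own, only its difference between libraries.

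**Figure D5:**
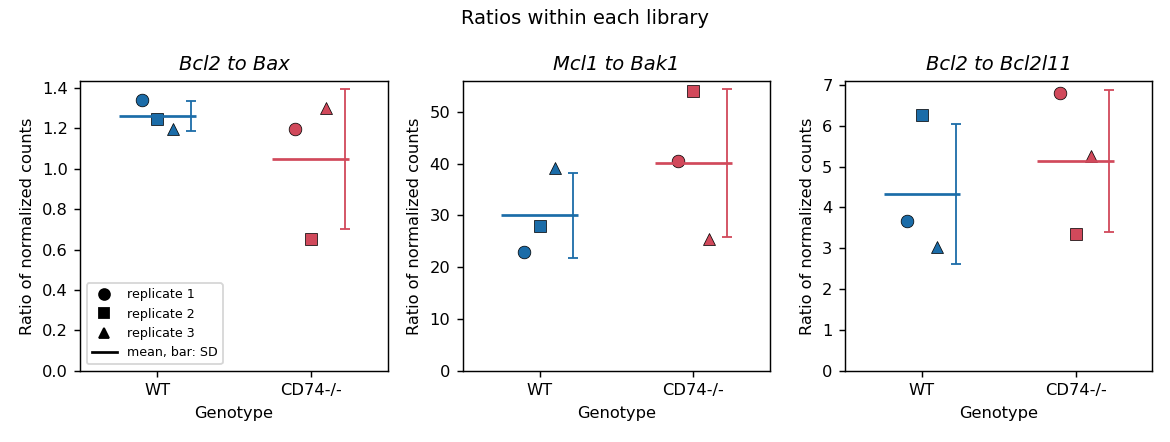
Ratio of normalized counts of Bcl2 to Bax, Mcl1 to Bak1 and Bcl2 to Bcl2l11 within each library, 1 point per library, with the mean (line) and SD (bar) of 3 libraries per genotype. The 2 genotypes overlap in each panel, and CD74-/- replicate 2 has the lowest Bcl2 to Bax ratio, 0.654.

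The survival and apoptosis genes were more spread among CD74-/- than among WT libraries. Their median SD of log2 values was 0.33 in WT and 0.64 in CD74-/- libraries, beside 0.41 and 0.54 over all tested genes. CD74-/- replicate 3 was the library furthest from the mean of the other replicates of its group for 14 of the 32 genes, beside 48.2% of all tested genes, and for 12 of 32, beside 34.6%, it lay on the other side of the WT mean from CD74-/- replicates 1 and 2. WT replicate 1, with the most neutrophil marker RNA, was the furthest of its group for 16 of 32 genes, beside 43.5% of all tested genes. It held the highest WT value of many genes. Among them were Mcl1, Bcl2, Pim1, Pim2, Bak1, Bcl2l11, Fas, Tnfrsf1a and Zmat3, lower on average in CD74-/- cells. Others were Bid, Bax, Birc2, Cflar and Apaf1, higher on average there. The part of the neutrophil markers in these values was not tested. Without CD74-/- replicate 3, at an unadjusted limma p under 0.05, 4 genes were higher (Bid, Bad, Casp8 and Casp6). Another 4 were lower (Mcl1, Pim2, Tnfrsf1a and Zmat3). The adjusted test called 0, and the lowest limma adjusted p was then 0.112 (Tnfrsf1a). Leaving out that library also raised the number of all genes called at an adjusted p under 0.05, from 13 to 35. The unadjusted share over all genes was not determined for that fit, so its 4 and 4 genes have no share beside them. Without WT replicate 2 the unadjusted counts of the survival and apoptosis genes were 0 higher and 1 lower, and without WT replicate 3 they were 0 and 0.

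None of the other genes of the pathway passed the adjusted test either. Of 115 further apoptosis genes in the table, 112 were tested, and limma, edgeR and DESeq2 each called 0. At an unadjusted p under 0.05 limma gave 5 higher (beside 3.14% of all genes) and 4 lower (beside 4.6%), while edgeR gave 9 of 112 in all (beside 7.09%) and DESeq2 12 of 115 (beside 8.35%). Among 49 tested genes of the wider death machinery, those with groups apart and an unadjusted p under 0.05 were Dap and Pdcd10, higher in CD74-/- cells, and Tmbim6 and Bag3, lower. Tmbim6, which encodes the endoplasmic reticulum protein BAX inhibitor 1, was at 3914, 2295 and 2758 normalized counts (WT) against 1811, 1745 and 1865 (CD74-/-) (log2 fold change -0.69, SE 0.24, limma adjusted p = 0.566). Its CD74-/- values were close to each other and all below WT. The highest value came from WT replicate 1, the library with the most neutrophil marker RNA, and the part of these markers was not tested. Without that library 0 of the further apoptosis genes, Tmbim6 included, were lower at an unadjusted limma p under 0.05. Bag3, a stress-induced partner of HSP70, had means of 136 ± 18.9 and 56.9 ± 34.6 (SD, n = 3; log2 fold change -1.40). Dap had 1702 ± 292 and 2833 ± 941 (0.70), and Pdcd10 had 1992 ± 422 and 2992 ± 597 (0.59). Casp1, the inflammatory caspase of the inflammasome, chosen after its values had been seen, had 2389 ± 753 and 3827 ± 698 (0.71), with overlapping groups.

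Among 24 tested genes of death receptor signalling, Mlkl had the lowest p of the 112. Mlkl, which forms the membrane pore of necroptosis, a caspase-independent form of death, was at 103, 258 and 215 normalized counts (WT) against 627, 564 and 321 (CD74-/-). All CD74-/- values were above all WT values. The difference was 1.43 on the log2 scale (SE 0.44, unadjusted p = 0.00877 and limma adjusted p = 0.519, DESeq2 adjusted p = 0.147; exact permutation p = 0.1). Tradd, the adaptor of TNF receptor 1, also chosen after its values had been seen, had 182 ± 92.3 and 393 ± 164 (1.15), with overlapping groups. Among 39 tested p53 regulators and targets, Dram1, a lysosomal p53 target, was at 148, 66.3 and 121 (WT) against 0.98, 30.4 and 26.6 (CD74-/-) (log2 fold change -3.16, SE 1.08, limma adjusted p = 0.556), where the 0.98 stands for a single read. Gadd45g, a stress-induced gene, had 275 ± 20.3 and 132 ± 87.7 (-1.31). The groups did not overlap for 7 higher and 7 lower of the 112 genes, beside 5.35% and 7.47% of all genes. Without WT replicate 1 the unadjusted counts were 1 higher and 0 lower, and without CD74-/- replicate 3 they were 15 and 7. They were 2 and 2 without CD74-/- replicate 1, 3 and 4 without CD74-/- replicate 2, and 5 and 2 without WT replicate 2. The number of all genes called at an adjusted p under 0.05 moved as well. It went from 13 to 7 without WT replicate 1 and to 35 without CD74-/- replicate 3. Unadjusted shares over all genes were not determined for fits with a library left out.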

How the data were processed

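RNA of sorted CD34-/LSK cells (3 libraries per genotype) had been amplified full-length (SMART-Seq v4, which keeps no strand) and sequenced. Per the submitters' processing notes and the methods, the authors trimmed reads with cutadapt, aligned them with STAR 2.4.2a to GRCm38 and counted them per gene with HTSeq. The deposited values are signal values in which the authors divided each gene's count by the DESeq2 size factor of its library. A deposited sheet of fold change, adjusted p and count thresholds was not used. All values above 0 (101059 of 101059) were whole reads within 0.006 normalized counts once the size factor was undone, so reads were recovered for count tests. The 6 libraries held 14390534 to 16198678 reads, with no molecular identifiers, so limits from counts of 0 cover counting error only. 0 columns were left unmapped.

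The main test was limma 3.58.1 (trend) on log2(normalized count + 1) for genes with an average of at least 10, adjusted by Benjamini-Hochberg over all of them, with 95% intervals and a two-sided exact permutation test per gene. For low genes, log2 fold changes on this scale were in part smaller and in part larger than those from counts. Bok was at -1.305 with limma and -1.453 with DESeq2. Zmat3 was at -1.39 and -0.945, and Dram1 at -3.16 and -2.53. Alternatives were pseudocounts of 0.5 and 5, no filter, an average of at least 50, TMM or total-count scaling, a replicate block, each library left out, and edgeR 4.0.16 and DESeq2 1.42.0 on recovered reads. Scripts were tested on simulated data with known changes. At an adjusted p under 0.05, limma recovered 37 of 67 genes changed 4-fold, edgeR 36 and DESeq2 44. Of unchanged genes, limma called 12 of 14536, edgeR 8 of 14084 and DESeq2 75 of 19230. A gene changed 4-fold could therefore go uncalled. The p values set the difference between the genotypes against the spread between these libraries. That is a spread between mice only if each library came from 1 mouse, as assumed here. Genes and lists were chosen with earlier results of these data known. Genes named in full were a fixed set plus those with groups apart or an unadjusted limma p under 0.05, and other pathway genes were named if both held. Casp1, Tradd, Bcl2l14, Atm, Atr, Usp7 and Rela were named outside this rule, after their values had been seen. Levels between genes were compared per kilobase of exon (GENCODE vM21, GRCm38). Genes of the lists outside the table were not analysed here. 1 gene of the HSC marker list is not reported here and was left out of its sum.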

Additional observations from a re-analysis of the deposited data

How the results depend on the processing

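The count of survival and apoptosis genes with an adjusted p under 0.05 was 0 under all 15 alternatives, as was that of the other apoptosis genes. For 19 of 32 tested genes the direction held under every alternative. At an unadjusted p under 0.05 (main counts 1 higher and 0 lower), 1 gene was lower with the replicate block, with total-count scaling and with DESeq2, and leaving out single libraries gave 0 to 4 higher and 0 to 4 lower. Libraries of the 2 genotypes share a replicate number only, without a stated pairing; the correlations of deviations between libraries of the same number were 0.116, 0.072 and 0.019, and the block raised the count of all genes called from 13 to 27. Other apoptosis genes (main 5 higher and 4 lower) were 3 higher with total-count scaling, 8 higher with DESeq2 and 2 lower with edgeR, and 1 to 15 higher and 0 to 7 lower with single libraries left out. In those fits the number of all genes called at an adjusted p under 0.05 lay between 7 and 40. Unadjusted shares over all genes were determined only for the main limma, edgeR and DESeq2 fits. The unadjusted counts from the other fits therefore have no share beside them, and are not read as a result about these genes. Log2 fold changes that turned did so from values near 0 or with single libraries left out; the cause was not tested. With total-count scaling, which moves the median of all genes from -0.03 to -0.10, Birc2 was at -0.023 and Xiap at -0.036. With single libraries left out the ranges were -0.12 to 0.20 for Birc2, -0.31 to 0.37 for Birc3, -0.16 to 0.20 for Xiap, -0.018 to 0.21 for Cflar, -0.63 to 0.17 for Pim3 and -0.11 to 0.39 for Bax. They were -0.34 to 0.37 for Bbc3, -1.30 to 0.034 for Bmf, -0.13 to 0.79 for Casp6, -0.18 to 0.64 for Apaf1, -0.47 to 0.12 for Diablo, -0.24 to 0.30 for Trp53 and -0.26 to 0.64 for Tnfrsf10b. With 3 libraries a group, only changes well above the spread could pass, and Bcl2a1a, Bcl2a1d, Pmaip1 and Bik were below the limit of the main limma test.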

Other observations

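Bcl2l14, a Bcl-2 relative of uncertain function outside the 36 genes, was at 2.14 normalized counts in WT replicate 1, the library with the most neutrophil marker RNA, and between 123 and 213 in the other 5 libraries. It is given here because of its values. Among p53 regulators, the DNA damage kinases Atm and Atr had groups that did not overlap, both higher in CD74-/- cells, with log2 fold changes of 0.71 and 0.56 (limma adjusted p = 0.65 and 0.658). Usp7, a deubiquitinase of MDM2 and p53, did not overlap either and was at -0.40 (limma adjusted p = 0.688). Rela, the p65 subunit of NF-κB, had 829, 650 and 627 normalized counts for WT against 489, 477 and 455 for CD74-/- (log2 fold change -0.56, limma adjusted p = 0.668). These 4 genes were picked with their values in view, and none passed the test over all genes.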
